A study of Mus musculus with 12 samples.

Results

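Heat shock chaperone genes and Hsf1, the gene of their main transcription factor, were examined for rhythmic mRNA expression in the mouse liver. The set was chosen by gene symbol and holds 10 of the 20069 genes in the deposited RNA-Seq table. They are Hspa8, Hspa1b, Hspa1a, Hsph1, Dnajb1, Hsp90aa1, Hsp90ab1, Hspd1, Hspe1 and Hsf1. Hsph1 is listed there as Hsp110, a synonym that RefSeq gives for this gene. Poly(A) RNA came from the livers of wild-type C57BL/6 mice, adults of 3 to 6 months, kept in a cycle of 12 hr light and 12 hr dark for at least the 2 weeks before sampling. ZT counts the hours from lights on. Livers were taken at 6 times, of which ZT2, ZT6 and ZT10 fall in the light and ZT14, ZT18 and ZT22 in the dark. Each time was sampled in both of 2 series, which gives 12 samples, and no group carried an altered allele or a drug. The values are mean coverage per base of the exons of a gene (reads per base pair, rpbp), per 40000000 uniquely mapped sequences. They can be compared between genes, except for near-identical genes such as Hspa1a and Hspa1b, whose shared sequences were not counted. A gene was taken as expressed when at least 1 of its 12 values was above 8 rpbp, and 9 of the 10 genes, among 10198 in all, passed. A whole liver was measured, and in such a sample fewer cells of a type cannot be told apart from less RNA per cell.

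Chaperones bind unfolded protein and help it fold. When unfolded protein accumulates, for instance as temperature rises, the factor HSF1 is released from chaperones that hold it inactive, forms a trimer and activates chaperone genes at heat shock elements, which are inverted repeats of the bases GAA. The Hsp70 proteins work with J proteins, which deliver clients and trigger ATP hydrolysis, and with Hsp110, which exchanges the nucleotide. Hsp90 completes the folding of kinases and steroid receptors, and Hsp60 with its lid Hsp10 folds protein inside mitochondria. The liver makes much of the protein of the blood, and its temperature and feeding follow a daily cycle.

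RefSeq start-site windows of 300 bases (build GRCm38.p6, from 250 bases before to 50 after the start) were at hand for 6 of the 10 genes: Hspa1a, Hspa1b, Hsph1, Dnajb1, Hspd1 and Hspe1. The regions of Hspa1a and Hspa1b are shown because the reads of these near-identical genes are hard to tell apart. Both are on the minus strand of chromosome 17, at chr17:34972157-34972406 for Hspa1a and chr17:34959239-34959488 for Hspa1b, and run from 250 bases before the start to the base before it. Capitals mark a match to GAANNTTC, a pair of GAA units.
Hspa1a: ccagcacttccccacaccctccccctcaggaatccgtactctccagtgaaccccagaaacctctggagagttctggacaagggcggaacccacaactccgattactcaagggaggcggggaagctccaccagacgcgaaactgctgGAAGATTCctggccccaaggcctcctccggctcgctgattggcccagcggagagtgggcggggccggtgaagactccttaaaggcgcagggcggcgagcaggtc
Hspa1b: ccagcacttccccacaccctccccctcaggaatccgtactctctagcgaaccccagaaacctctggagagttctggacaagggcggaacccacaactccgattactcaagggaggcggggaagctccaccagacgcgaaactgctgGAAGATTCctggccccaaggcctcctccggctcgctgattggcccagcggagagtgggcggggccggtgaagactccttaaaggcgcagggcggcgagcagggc
These regions differed at 3 of 250 bases, and the whole windows were 98.7% identical. The paired match begins at base -104 from the start in both.

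The next windows are shown because they hold a run of 3 units, GAANNTTCNNGAA or its reverse complement TTCNNGAANNTTC, searched on both strands. Capitals mark all bases of such matches. The Hsph1 window is on the minus strand at chr5:149636279-149636308, from base 8 to base 37 after the second of its annotated starts. The Hspe1 window is on the plus strand at chr1:55088053-55088082, from base -95 to base -66 from the start, and its capitals join 2 overlapping matches.
Hsph1: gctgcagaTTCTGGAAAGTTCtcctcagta
Hspe1: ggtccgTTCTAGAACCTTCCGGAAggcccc
Hspd1 and Hspe1 stand head to head, and the same bases lie from base -150 to base -121 from the second annotated start of Hspd1. The 3-unit match was thus found at 3 of the 6 genes, for Hspd1 and Hspe1 in the same stretch of DNA, and at 0.662% of the 27025 genes with a window (0.603% of all 32851 windows). The 2-unit match, GAANNTTC or TTCNNGAA, which is part of every 3-unit match, was found at 5 of the 6 genes and at 17.0% of all genes (15.1% of all windows). No match of either kind was in the windows of Dnajb1. A match of letters is a description and does not show that a factor binds.

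Rhythmic expression of the chaperone genes was assessed by the share of variance at a 24 hr period. Of the 9 expressed genes, 7 were called rhythmic, which were Hspa8, Hspa1b, Hsph1, Dnajb1, Hsp90aa1, Hsp90ab1 and Hspd1. The call needed a share of the variance at 24 hr (F24) above 0.45, a highest value over 1.5 times the lowest (the amplitude), and a permutation p under 0.05. Of all expressed genes, 19.2% met these criteria. Hspe1 missed the amplitude limit and Hsf1 missed those of F24 and p. With the p adjusted over all expressed genes, only Hspa8 and Hspd1 of these 9 kept the call, against 4.95% of all expressed genes. Of the 12 fits that left out 1 sample, 6 lost this adjusted call for Hspa8 (those without either sample of ZT2, ZT6 or ZT22, adjusted p up to 0.103), and 3 lost it for Hspd1 (those without the second ZT10, ZT14 or ZT22 sample). Strong rhythms, with F24 above 0.6 and a higher limit on the amplitude that the study's methods set, were found for Hspa8 and Dnajb1, and for 7.89% of all expressed genes. Dnajb1 lost the strong call without either ZT2 sample (F24 0.56 for both) or either ZT14 sample (F24 0.54 for both).

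The highest time-point mean was at ZT14, 2 hr after lights off, in all of the 9 expressed genes, against 15.4% of all expressed genes. The single series did not all peak there. The highest value was at ZT10 for Hspd1 in series 1 and Hspe1 in series 2. It was at ZT18 for Hsp90ab1 in series 2 and Hsf1 in series 1. In 5 of the 9, Hspa8, Hspa1b, Hsph1, Dnajb1 and Hsp90aa1, both ZT14 values were above the other 10 values, which was true of 3.53% of all expressed genes. These ZT14 counts, of which the second is also given for the lists below, were not among the planned tests. They take the time at which this set was high, so the comparison with all genes is a description. A time effect of any shape, tested with limma (F-test over the 6 time points, adjusted p under 0.05), was found for the same 5 genes, and for 20.4% of all expressed genes. Hspa1b was above the expression minimum at ZT14 only, so that its place in these counts was partly fixed by the minimum. Of the other 8 genes, 6 were rhythmic, 4 had a time effect and 4 had both ZT14 values above the rest. When the ZT14 samples were left out, an alternative chosen after seeing the data, F24 called 3 genes (Hspa8, Hsp90aa1 and Hsp90ab1) and limma found a time effect in 2 (Hsph1 and Hsp90aa1). Over all genes expressed in the remaining samples, F24 then called 1723 and limma 1748, against 1960 and 2076 with ZT14. Hspa1b then had no value above the minimum and was not tested.

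**Figure D1:**
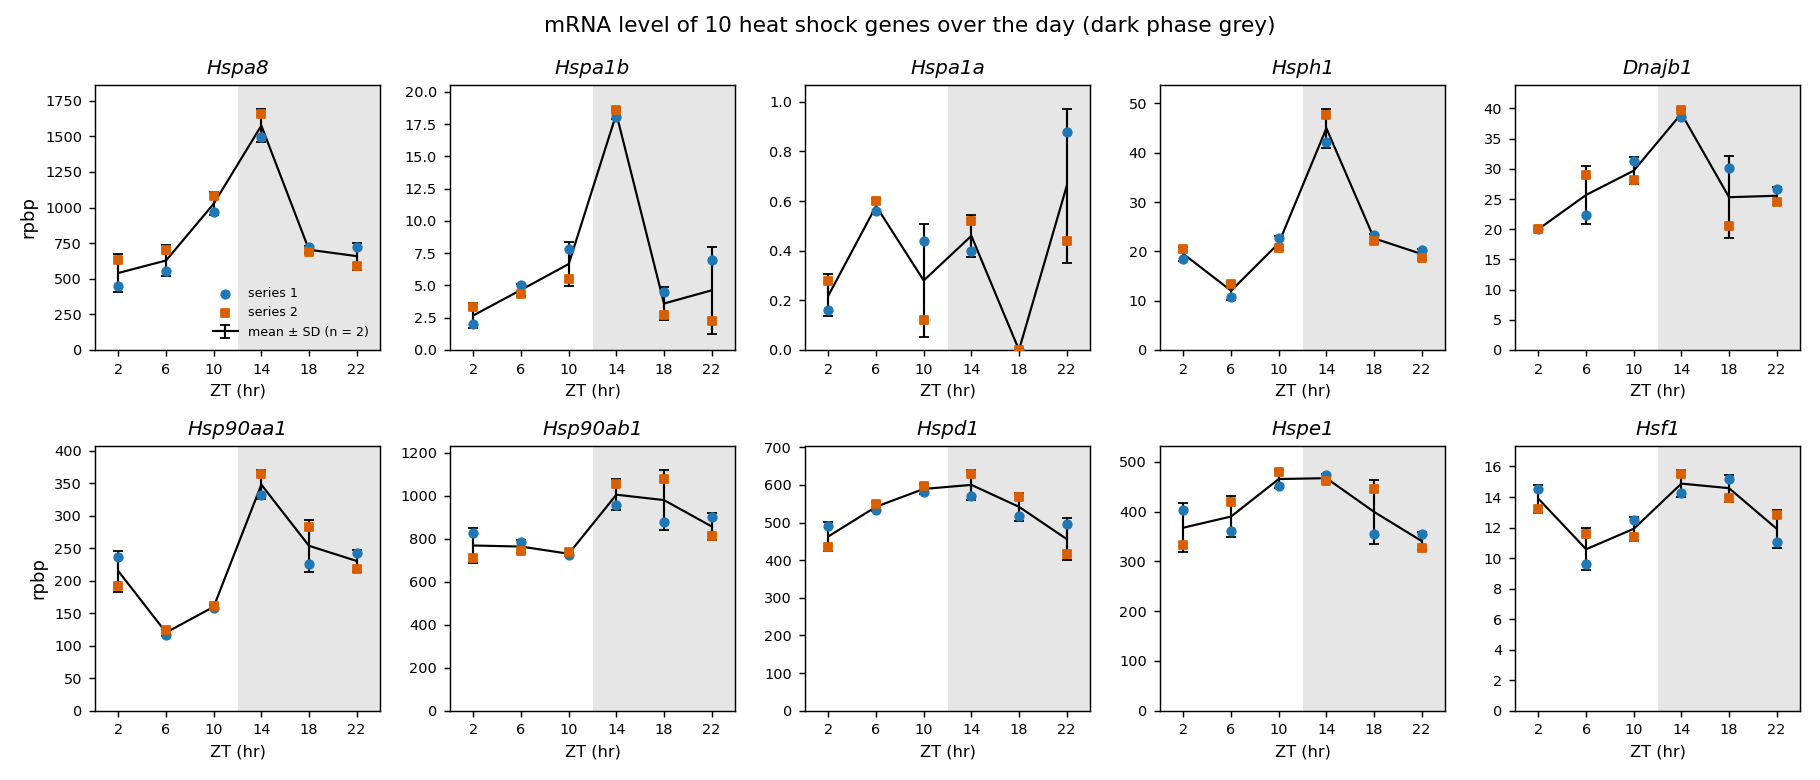
mRNA level in rpbp (vertical axes, from 0) against ZT in hr for each of the 10 genes, with the 12 samples as points by series, the mean ± SD of the 2 samples of a time as a line with bars, and the dark phase in grey. Hspa8, Hspa1b, Hsph1, Dnajb1 and Hsp90aa1 have both ZT14 points above all others, while Hspa1a stays at or below 0.88 rpbp.

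Among the Hsp70 genes, Hspa8 encodes the constitutive cytosolic Hsp70 (Hsc70), which folds new protein and strips clathrin from vesicles. In series 1 its level was 447 rpbp at ZT2, 552 at ZT6, 969 at ZT10, 1493 at ZT14, 721 at ZT18 and 725 at ZT22. In series 2 it was 634, 704, 1084, 1657, 687 and 592 rpbp at the same times. In both series it climbed through the light phase to ZT14 and at ZT18 was at 0.483 and 0.415 of its ZT14 level. Its time-point means ran from 541 ± 132 rpbp at ZT2 to 1575 ± 116 at ZT14 (SD, n = 2), a ratio of 2.91. F24 was 0.69 with a phase of ZT13.2, and the permutation p was 0.0007 (adjusted 0.026). The limma time effect had an adjusted p of 0.0029. The time effect and the call by the unadjusted permutation p held when any single sample was left out. Hspa8 lies at chr9:40609067-40613283 (mm9, plus strand) and hosts 3 snoRNA genes (Snord14c, Snord14d and Snord14e).

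Hspa1b is a strongly heat-inducible Hsp70 gene with low expression in unstressed tissue. It was at 2, 5, 7.84, 18.04, 4.48 and 7 rpbp from ZT2 to ZT22 in series 1 and at 3.36, 4.32, 5.48, 18.6, 2.72 and 2.24 rpbp in series 2. Only its ZT14 values were above the expression minimum, so that this gene entered the tests through the time at which it was high. ZT14 averaged 18.3 ± 0.37 rpbp (SD, n = 2), against 4.44 over the other 10 samples, a ratio of 4.12. F24 was 0.50 at a phase of ZT13.4, with a permutation p of 0.0159 (adjusted 0.106), and the limma time effect had an adjusted p of 0.019. The F24 call was lost without the first ZT2 sample (F24 0.47, permutation p 0.0588), either ZT14 sample (F24 0.40 for both) or the second ZT22 sample (F24 0.47, permutation p 0.0518). The time effect was lost without the first ZT2 sample (adjusted p 0.054) or the first or second ZT14 sample (adjusted p 0.082 and 0.091, limma).

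Hspa1a, the neighbouring copy of Hspa1b with a nearly identical sequence, had at most 0.88 rpbp and is listed at 0 in both ZT18 samples. Sequences with more than one place were not counted, so the split between the copies is uncertain. The mean of the 2 genes, taken as 1 gene, was called rhythmic with F24 0.47 and a permutation p of 0.0311, and its time effect had an adjusted p of 0.039. Like Hspa1b, this mean passed the expression minimum at ZT14 only. It also leaves out the shared sequences, and with Hspa1a this low it largely follows Hspa1b. It therefore does not settle the split. Hspa1b lies at chr17:35093381-35096183 and Hspa1a at chr17:35106144-35109069 (mm9, minus strand). Hspa1a shares 2213 bases with Gm20481, a gene on the other strand, and counting did not use strand.

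Hsph1 and Dnajb1 encode partners of Hsp70. Hsph1 encodes Hsp110 (Hsp105), the nucleotide exchange factor, and lies at chr5:150416862-150438951 (mm9, minus strand). In series 1 Hsph1 was at 18.5 rpbp at ZT2, 10.7 at ZT6, 22.6 at ZT10, 42.2 at ZT14, 23.2 at ZT18 and 20.2 at ZT22. Series 2 gave 20.4, 13.3, 20.7, 47.7, 22.04 and 18.7 rpbp. In both series the lowest value was at ZT6 and the highest at ZT14, and the ratio of these time-point means was 3.74. ZT14 was 1.86 times ZT10 in series 1 and 2.31 times in series 2. Its F24 of 0.56 had a phase of ZT14.9 and a permutation p of 0.0033 (adjusted 0.052). The limma time effect of Hsph1 had an adjusted p of 0.00052, the lowest among the 9 genes, and this effect and the call by the unadjusted p held without any single sample. Without the ZT14 samples the time effect remained (adjusted p 0.011), while the F24 call was lost (F24 0.51, permutation p 0.0711).

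Dnajb1 encodes Hsp40, the J protein that is induced together with Hsp70, and lies at chr8:86132074-86135801 (mm9, plus strand). Its values from ZT2 to ZT22 were 20, 22.3, 31.3, 38.6, 30.1 and 26.6 rpbp in series 1 and 20.04, 29.04, 28.1, 39.7, 20.5 and 24.5 rpbp in series 2. The ZT2 samples were lowest and the ZT14 samples highest in both series, at 20.02 ± 0.028 and 39.1 ± 0.76 rpbp (SD, n = 2). F24 was 0.62 at a phase of ZT13.3, with a permutation p of 0.0151 (adjusted 0.104). The F24 call held without any single sample. The limma time effect had an adjusted p of 0.039 and was lost in 8 of the 12 fits that left out 1 sample, with adjusted p of up to 0.126 (without the second ZT14 sample). These were the fits without either sample of ZT2, ZT10, ZT14 or ZT22. Without both ZT14 samples F24 was 0.39 (permutation p 0.179).

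The cytosolic Hsp90 genes had later phases. Hsp90aa1 encodes the inducible Hsp90 alpha and lies at chr12:111928815-111940938 (mm9, minus strand). Its level from ZT2 to ZT22 was 237, 117, 158, 332, 225 and 243 rpbp in series 1 and 192, 124, 162, 364, 282 and 218 rpbp in series 2. Both series were lowest at ZT6, highest at ZT14 and still above their ZT6 and ZT10 levels at ZT18 and ZT22. The time-point mean rose from 120 ± 5.12 rpbp at ZT6 to 348 ± 22.9 at ZT14 (SD, n = 2), a ratio of 2.89. F24 was 0.59 with a phase of ZT17.1 and a permutation p of 0.0198 (adjusted 0.117), and the limma time effect had an adjusted p of 0.0012. The F24 call was lost without the first or the second ZT6 sample (permutation p 0.0622 and 0.0532), while the time effect held without any single sample. Without the ZT14 samples F24 was 0.78, and the phase moved to ZT19.5.

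Hsp90ab1 encodes the constitutive Hsp90 beta and lies at chr17:45704724-45710220 (mm9, minus strand). Its level from ZT2 to ZT22 was 826, 786, 724, 956, 881 and 904 rpbp in series 1 and 713, 743, 738, 1056, 1080.4 and 812 rpbp in series 2. It was highest at ZT14 in series 1 and at ZT18 in series 2. F24 was 0.64 with a phase of ZT17.1 and a permutation p of 0.0119 (adjusted 0.093). Its amplitude of 1.52 was just past the limit of 1.5, and the call was lost without the second ZT2 sample (amplitude 1.49) or the second ZT18 sample (amplitude 1.48). The limma time effect missed the threshold (adjusted p 0.068) and passed it only when the first ZT18 sample was left out.

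The 2 Hsp90 genes were compared within each sample by the ratio of their rpbp values. Hsp90ab1 exceeded Hsp90aa1 in all 12 samples. The ratio was 6.36 ± 0.53 at ZT6 and 2.89 ± 0.014 at ZT14 (SD, n = 2). At ZT2, ZT10, ZT18 and ZT22 it was 3.60 ± 0.15, 4.57 ± 0.011, 3.87 ± 0.060 and 3.72 ± 0.0041 in that order. The ZT6 values, 6.74 and 5.99, were above and the ZT14 values, 2.88 and 2.90, were below those of all other times. The ratio was described and not tested.

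**Figure D2:**
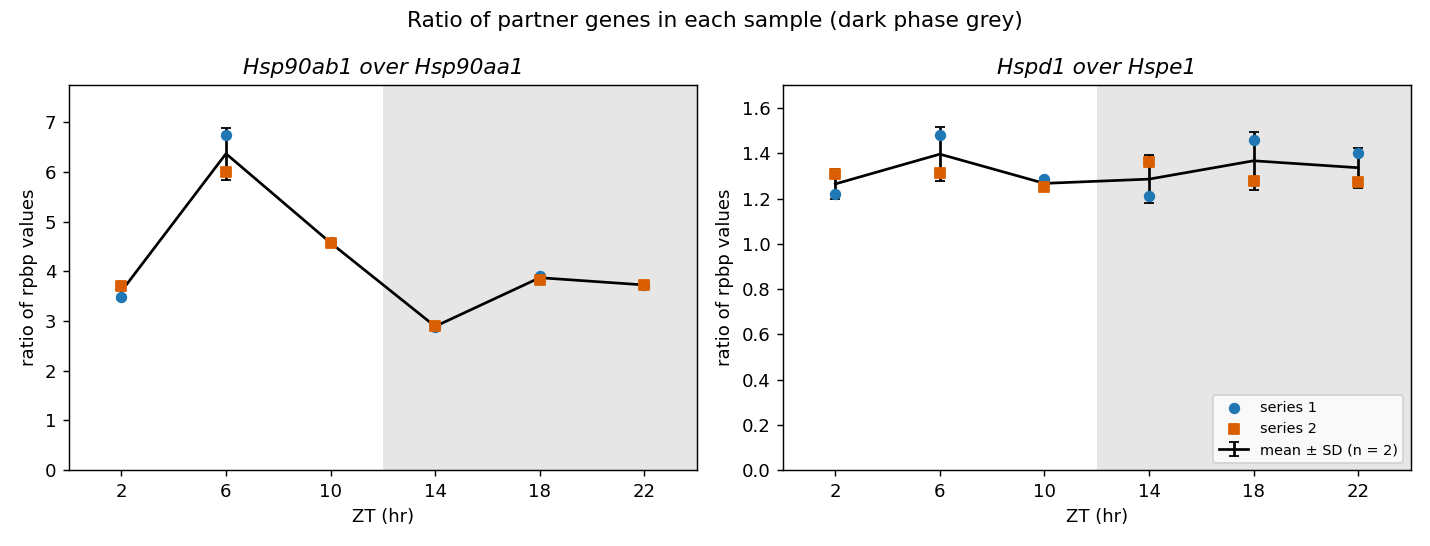
Ratio of the rpbp values of Hsp90ab1 to Hsp90aa1 (left) and of Hspd1 to Hspe1 (right) against ZT in hr, with points for the samples by series, a line and bars for the mean ± SD (n = 2), vertical axes from 0, and the dark phase in grey. The left ratio is 6.36 at ZT6 and 2.89 at ZT14, and the right one stays between 1.21 and 1.48.

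Hspd1 (Hsp60) and Hspe1 (Hsp10) encode the mitochondrial chaperonin and its lid. They stand head to head on chromosome 1, at chr1:55134679-55145087 on the minus strand and chr1:55144976-55148151 on the plus strand (mm9), and share 112 bases. Hspd1 was at 490.2, 534, 581, 572, 516 and 495 rpbp from ZT2 to ZT22 in series 1 and at 436, 550.5, 598, 628, 568 and 417 rpbp in series 2. Hspe1 was at 402, 361, 452, 472, 354 and 354 rpbp in series 1 and at 333, 419, 478, 461, 445 and 328 rpbp in series 2. Both genes had their highest means at ZT14 and their lowest at ZT22, with ratios of 1.32 and 1.37. The ZT10 and ZT14 means differed by less than the SD of ZT14 for Hspd1 (589 and 600.1 ± 40.1 rpbp, n = 2) and by less than that of ZT10 for Hspe1 (465 ± 18.6 and 467 rpbp).

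F24 of Hspd1 was 0.81, the highest of the 9 genes, with a phase of ZT12.0. Its permutation p of 0.0001 (adjusted 0.011) is the smallest that 10000 orders can give. F24 of Hspe1 was 0.71 with a phase of ZT11.9 and a permutation p of 0.0091 (adjusted 0.084). Their amplitudes lay on either side of the limit of 1.5, with 1.51 for Hspd1 and 1.46 for Hspe1. The Hspd1 call was lost without the second ZT14 sample (amplitude 1.43) or the second ZT22 sample (amplitude 1.44), with F24 at 0.79 and 0.82. Neither gene passed the limma test of a time effect (adjusted p 0.076 and 0.118), although Hspd1 did when the first ZT22 sample was left out. The ratio of Hspd1 to Hspe1 lay between 1.21 and 1.48 over the 12 samples, with a median of 1.30.

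Hsf1 encodes the transcription factor that activates the other genes and is itself regulated mainly as a protein. It lies at chr15:76307865-76331402 (mm9, plus strand). Its mRNA was at 14.5, 9.60, 12.5, 14.2, 15.2 and 11.04 rpbp from ZT2 to ZT22 in series 1 and at 13.2, 11.6, 11.4, 15.5, 13.96 and 12.8 rpbp in series 2. The time-point means ran from 10.6 ± 1.39 rpbp at ZT6 to 14.9 ± 0.91 at ZT14 (SD, n = 2). Hsf1 was not called rhythmic, with F24 0.38, phase ZT17.3 and a permutation p of 0.118 (adjusted 0.292), and the limma time effect missed the threshold (adjusted p 0.0996). It was called rhythmic without the first ZT2 sample (F24 0.59, permutation p 0.0353) or the first ZT22 sample (F24 0.55, permutation p 0.043).

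The phases of the 9 genes therefore covered ZT11.9 to ZT17.3. Hspd1 and Hspe1 were at ZT12.0 and ZT11.9, Hspa8, Dnajb1 and Hspa1b at ZT13.2 to ZT13.4, Hsph1 at ZT14.9, and both Hsp90 genes and Hsf1 at ZT17.1 to ZT17.3. A phase is the peak of the fitted cosine and not the time of the highest value, which was ZT14 for the mean of each. Computed in each series alone, the phases differed by 0.15 hr for Hsf1, by 0.36 hr for Hsph1 and by 1.09 hr for Hspa8. The widest differences were 2.50 hr for Dnajb1 (ZT14.4 and ZT11.9) and 2.20 hr for Hsp90ab1 (ZT18.7 and ZT16.5). The samples were 4 hr apart, and no test of phase differences between genes was made.

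**Figure D3:**
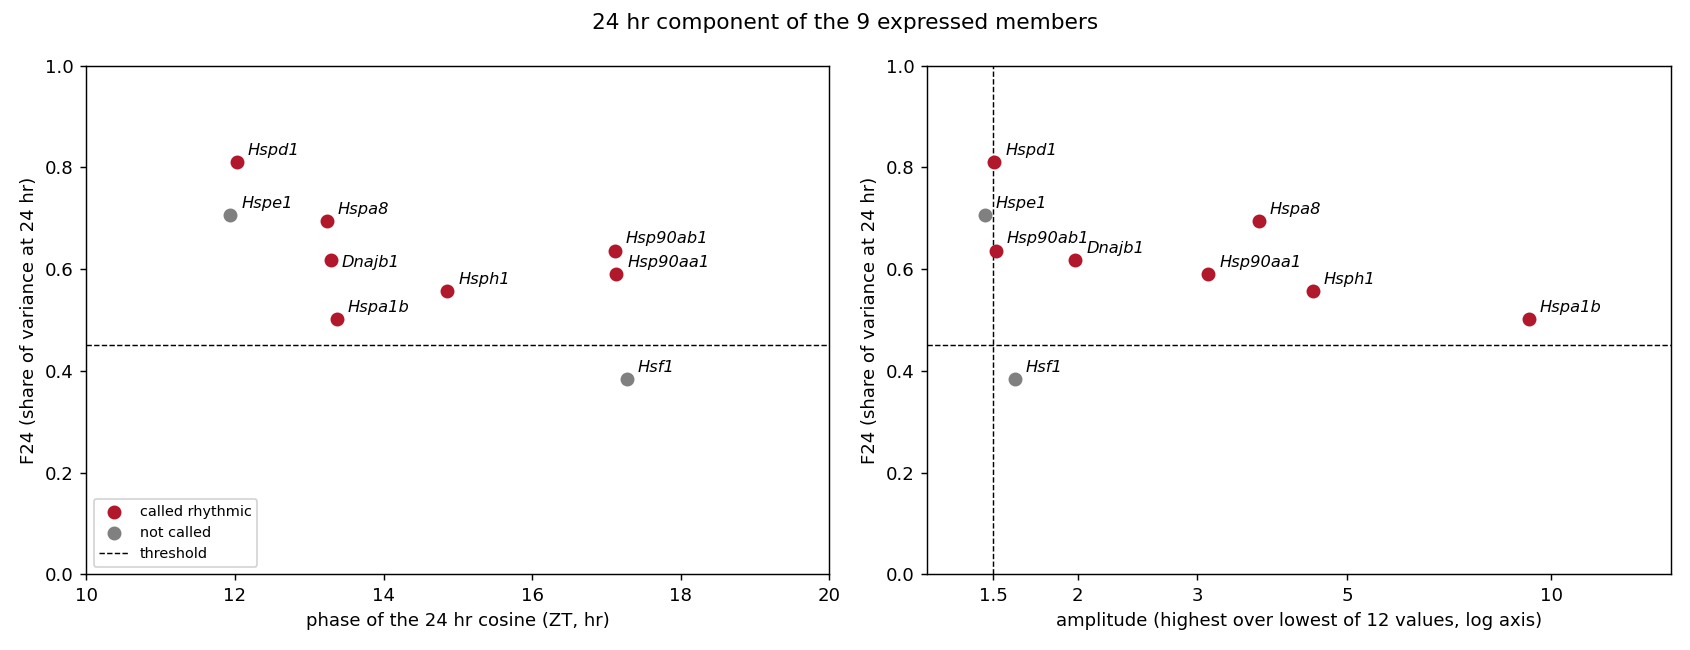
F24 (vertical axes) of the 9 expressed genes against the phase in hr (left) and against the amplitude on a log axis (right), with genes called rhythmic in red, others in grey, and dashed lines at the limits of 0.45 and 1.5. Hspd1 and Hspe1 lie near ZT12 on either side of the amplitude limit, both Hsp90 genes lie at ZT17.1, and Hsf1 lies below the F24 limit at 0.38.

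The dark samples were set against the light samples in the same limma fit. Levels were higher in the dark for Hsph1, Hsp90aa1 and Hsp90ab1, which is 3 of 9 genes, against 3.02% of all expressed genes that passed in this direction. None of the 9 passed in the other direction, with 0 calls by limma (0 at an unadjusted p under 0.05) against 2.27% of all expressed genes. The SE of this fit rests on the spread between the 2 samples of a time, not on that among the 6 samples of a phase. Hsp90aa1 differed by 0.76 ± 0.078 on the log2(rpbp + 1) scale (SE, n = 6 against 6, adjusted p 0.0010), which is 1.70-fold. Its light samples ran from 117 to 237 rpbp (median 159.8) and its dark samples from 218 to 364 rpbp (median 263). Hsph1 differed by 0.63 ± 0.070 (adjusted p 0.0013, 1.55-fold), with light samples of 10.7 to 22.6 rpbp (median 19.5) and dark samples of 18.7 to 47.7 rpbp (median 22.6). Hsp90ab1 differed by 0.32 ± 0.072 (adjusted p 0.033, 1.25-fold), with light samples of 713 to 826 rpbp (median 740.1) and dark samples of 812 to 1080.4 rpbp (median 929.6). The light and dark ranges overlapped in each of these 3 genes.

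The other genes missed the threshold. Hspa8 differed by 0.36 ± 0.10 (adjusted p 0.075), Hspa1b by 0.51 ± 0.23 (adjusted p 0.228), Dnajb1 by 0.23 ± 0.099 (adjusted p 0.206) and Hsf1 by 0.17 ± 0.075 (adjusted p 0.203). Hspa8 passed without the second ZT2 sample (0.45, adjusted p 0.046) and in series 1 and series 2 alone differed by 0.57 and 0.16. Hspa1b differed by 0.29 without the first ZT22 sample, and Dnajb1 by 0.14 without the first ZT18 sample. Hspd1 and Hspe1, whose cosine peaks at lights off, differed by -0.00082 ± 0.064 and -0.023 ± 0.079 (adjusted p 0.997 and 0.893). The call of Hsp90ab1 was lost in 10 of the 12 fits that left out 1 sample, all but those without the first ZT18 or the second ZT22 sample, with adjusted p of up to 0.0985 (without the second ZT6 sample). The calls of Hsph1 and Hsp90aa1 held in all 12. Without the ZT14 samples only Hsp90aa1 passed (0.59, adjusted p 0.013), and Hsph1 (0.28, adjusted p 0.097) and Hsp90ab1 (0.28, adjusted p 0.105) did not. A model with only 2 groups, in which the spread between times counts as error, called none of the 9 (3 at an unadjusted p under 0.05) and 34 genes in all, whereas the fit above called 540 in all

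**Figure D4:**
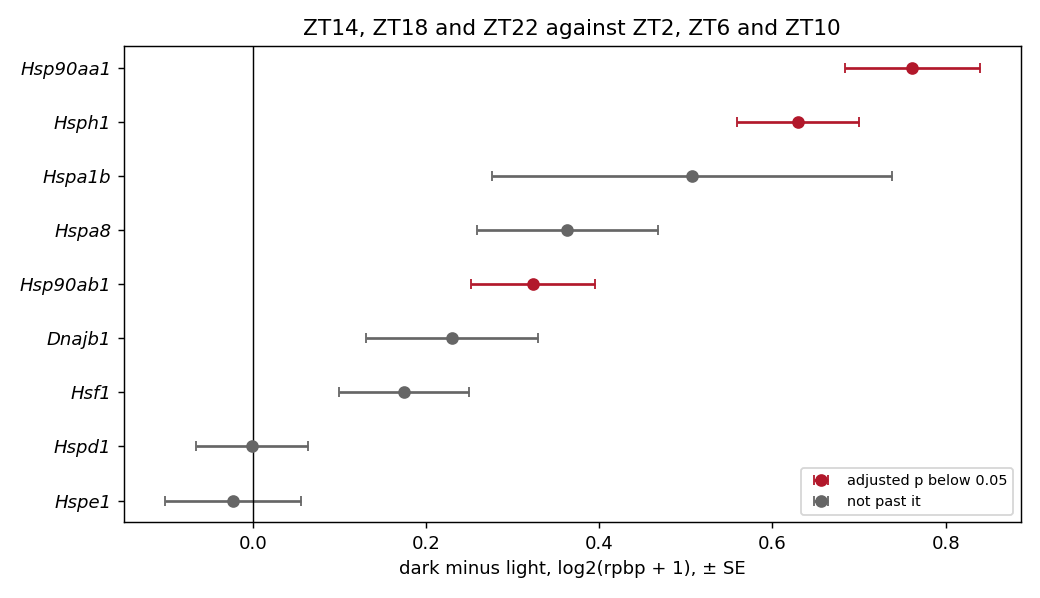
Difference between the dark samples (ZT14, ZT18 and ZT22) and the light samples (ZT2, ZT6 and ZT10) on the log2(rpbp + 1) scale, for the 9 expressed genes. Bars are the SE from the spread between the 2 samples of a time, and red marks an adjusted p under 0.05. Hsp90aa1 (0.76), Hsph1 (0.63) and Hsp90ab1 (0.32) are red, and Hspd1 and Hspe1 lie at 0.

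The levels themselves spanned a wide range. Hspa8 and Hsp90ab1 had the highest means over the 12 samples, 855 ± 379 and 851 ± 126 rpbp (SD, n = 12), and Hspa8 was the higher of the pair in 4 of 12 samples. They were followed by Hspd1 (532 ± 63.9), Hspe1 (405 ± 56.8) and Hsp90aa1 (221 ± 77.3 rpbp). Each of these exceeded the next in the order in all 12 samples. Dnajb1 (27.6 ± 6.69) and Hsph1 (23.4 ± 10.8 rpbp) did not differ beyond their spread, with Dnajb1 the higher in 8 of 12 samples. Hsf1 had 12.96 ± 1.82 rpbp, and Hspa1b, with 6.75 ± 5.68, was below it in 10 of 12 samples. The level of Hspa1b leaves out sequences shared with Hspa1a, so its place in this order is uncertain. Relative to its mean, the SD over the day was 84.1% for Hspa1b, 46.2% for Hsph1 and 44.3% for Hspa8, and 12.0% for Hspd1 and 14.1% for Hsf1.

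Over the 12 samples the levels on the log2(rpbp + 1) scale fell into overlapping groups, described by Pearson's r with no test, since all pairs share the same libraries. Hspa8, Hspa1b and Dnajb1 went together, with r of 0.91 for Hspa8 and Hspa1b and 0.88 for Dnajb1 with either. Hspd1 and Hspe1 had r of 0.89, and Hsp90aa1 and Hsp90ab1 0.82. Hsph1 was close to both Hspa8 (0.81) and Hsp90aa1 (0.85), although Hspa8 and Hsp90aa1 had only 0.45 with each other. Hsf1 was nearest to Hsp90aa1 (0.77) and Hsph1 (0.73) and farthest from Hspd1 (0.07).

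Among co-chaperones and other genes known to be heat-inducible or bound by HSF1, 7 of 19 expressed genes were rhythmic, against 19.2% of all expressed genes, and 4 had both ZT14 values above the other 10, against 3.53% of all. Fkbp4, an immunophilin that binds Hsp90, had the highest F24 (0.92, phase ZT17.2, permutation p 0.0003, adjusted 0.018), with an amplitude of 1.54. Hspb1, the small heat shock protein Hsp27, had F24 0.81 at a later phase, ZT20.8 (permutation p 0.0017, adjusted 0.038), and ranged from 12.6 to 48.7 rpbp. Dnajb6, a J protein that holds back aggregates, had F24 0.76 and a phase of ZT11 (permutation p 0.0004, adjusted 0.021). Dnaja1, another J protein of the cytosol, had F24 0.71 at ZT12.2 and ranged from 166 to 343 rpbp (permutation p 0.0065, adjusted 0.071).

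The remaining rhythmic genes of this list were Chordc1, Hspa4l and Stip1. Chordc1, an Hsp90 co-chaperone, had F24 0.60 and a phase of ZT15.0 (permutation p 0.0128, adjusted 0.096). Hspa4l, a relative of Hsp110, had F24 0.58 at ZT16.9 (permutation p 0.0103, adjusted 0.088). Stip1 (Hop), which links Hsp70 to Hsp90 and was named after its values were seen, had F24 0.57 at ZT16.8 (permutation p 0.0187, adjusted 0.115) and ranged from 46.0 to 91.0 rpbp. In the limma fit, 6 of the 19 had a time effect (20.4% of all expressed genes) and 4 were higher in the dark (3.02% of all), of which Stip1 differed by 0.43 ± 0.048 (adjusted p 0.0013) and Fkbp4 by 0.41 ± 0.049 (adjusted p 0.0018). The median F24 of the list was 0.48, against 0.31 over all expressed genes.

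Other chaperone lists were counted in the same way, beside the 19.2% rhythmic and 20.4% with a time effect among all expressed genes. Of 3 expressed genes that encode other heat shock factors or the HSF1 binding protein, Hsf4 was rhythmic at a low level (F24 0.62, phase ZT14.2, permutation p 0.0174, adjusted 0.110, 5.44 to 9.80 rpbp). Of 10 J proteins, which include Dnaja1, Dnajb4 and Dnajb6 of the list above, 2 were rhythmic. None of 10 Hsp70 co-chaperones was rhythmic, and the highest of them, St13 and Bag1, had means of 166 ± 14.2 and 144 ± 10.1 rpbp (SD, n = 12). None of the 8 subunits of the cytosolic chaperonin CCT was rhythmic either, although 3 had both ZT14 values on top (3.53% of all expressed genes). In each of these 2 lists 1 gene had a time effect by limma. Of these subunits Cct5 (179 ± 16.3 rpbp, F24 0.24, permutation p 0.297) and Tcp1 (156 ± 11.2 rpbp, F24 0.58, permutation p 0.0132, amplitude 1.27) had the highest levels.

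Of 8 further mitochondrial chaperones and proteases only Clpx, the unfoldase of a matrix protease, was rhythmic, with F24 0.93 and a phase of ZT21.2 (permutation p 0.0004, adjusted 0.021). Clpx ranged from 70.1 to 314 rpbp and was higher in the dark by 0.99 ± 0.073 (adjusted p 0.00023, limma). Of 14 chaperones of the endoplasmic reticulum 10 had a time effect by limma, against 20.4% of all expressed genes, and 1, Calr (calreticulin), was rhythmic by F24 (0.64, phase ZT23.2, permutation p 0.0081, adjusted 0.079). The summed level of these 14 genes was 5074 and 6763 rpbp at ZT14 and between 3535 and 7290.1 rpbp at other times. Of 2 cold-inducible RNA-binding genes Rbm3 was rhythmic (F24 0.63, phase ZT10.0, permutation p 0.0147, adjusted 0.102, amplitude 1.53). Of 8 expressed immediate early genes, which respond to acute stimuli, Btg2 (F24 0.66, phase ZT11.7, permutation p 0.0096, adjusted 0.086) and Myc (F24 0.61, phase ZT11.8, permutation p 0.0209, adjusted 0.121) were rhythmic. Myc averaged 11.8 rpbp at ZT10 and 13.6 at ZT14 and at most 3.74 at the other times, so that it passed the expression minimum only through the times at which it was high.

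**Figure D5:**
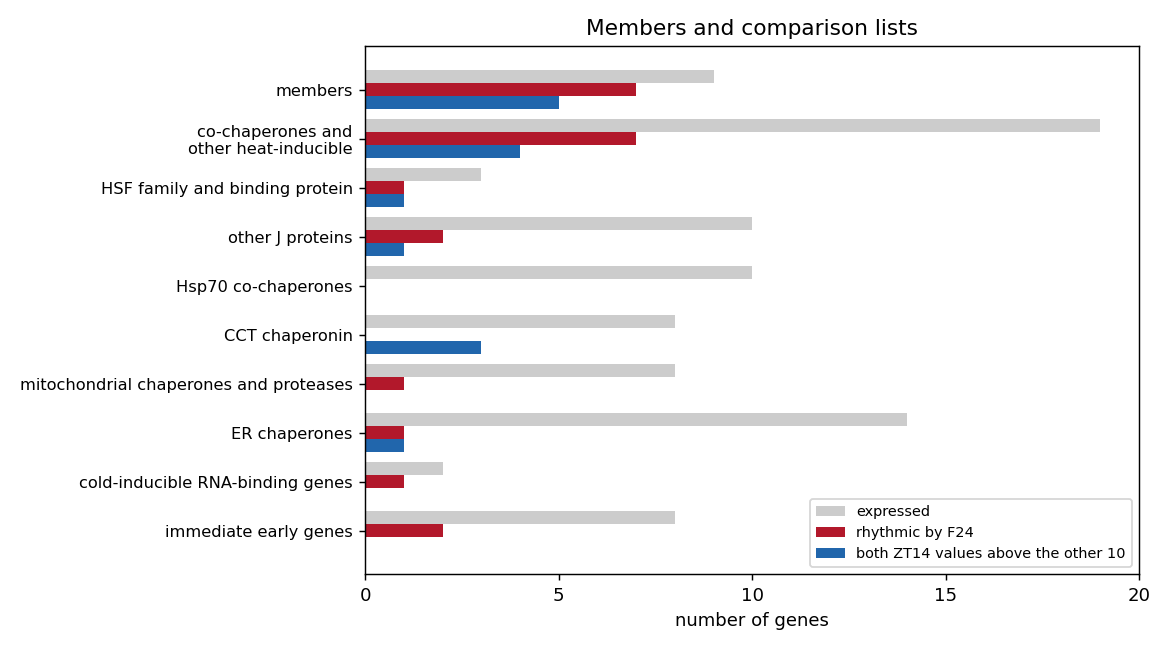
Number of genes (horizontal axis, from 0) in the heat shock set and in the comparison lists that were expressed (grey), called rhythmic by F24 (red), or had both ZT14 values above the other 10 (blue); some genes are in more than one list. The set has 7 rhythmic genes of 9, the co-chaperone and heat-inducible list 7 of 19, and the Hsp70 co-chaperones and CCT subunits none.

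The genes with the most similar pattern were sought by Pearson's r with the mean z-score of the 8 expressed chaperone genes, over the 12 samples and outside the set. Mapk14, which encodes the stress kinase p38 alpha, came first, with r of 0.94 and 104 rpbp at ZT14 against a mean of 80.9 elsewhere. It was not called rhythmic (amplitude 1.47) and missed the threshold for a time effect (adjusted p 0.061, limma). Gm1381 (0.92), Gtl2 (0.92), AK157178 (0.92) and Abhd2 (0.91) followed. Abhd2 averaged 117 rpbp at ZT14 and 41.1 at other times, while Gtl2 and AK157178 were low, with means of 1.96 and 4.73 rpbp, and passed the expression minimum in 1 and 2 ZT14 samples only. For Hsf1 the nearest were AK210662 (0.88), Zfp592 (0.86), IkappaB-zeta (0.85), Tubg1 (0.85) and Nup62 (0.84). AK210662 was low too, with a mean of 3.99 rpbp, and passed the minimum in 1 ZT14 sample only, and IkappaB-zeta passed it in 4 samples. Hsf1 itself had r of 0.48 with the mean z-score of the chaperones.

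The labelled tissue was checked against markers. Hepatocyte genes were high in every sample, with Alb (albumin) between 50445 and 122523 rpbp. Of 6 hepatocyte markers 4 had a time effect and 2, Alb and Cyp2e1, were rhythmic. Alb had its highest mean at ZT14 (114473 ± 11384 rpbp, SD, n = 2), a phase of ZT13.9 with F24 0.55 (permutation p 0.0058, adjusted 0.068), and was higher in the dark by 0.36 ± 0.077 (adjusted p 0.028, limma). The summed level of the 6 was 147916 and 169439.8 rpbp at ZT14 and between 89017 and 156700.4 rpbp elsewhere. It was lowest at ZT2 (89017 and 91877 rpbp), where Hspa8, Hspa1b and Dnajb1 also had their lowest means. None of the 6 was at 0, and their part in the results on the chaperones was not tested. The summed level of 3 bile duct markers was at most 5.48 rpbp and that of 3 lymphocyte markers at most 8.88 rpbp. The summed level of 3 stellate cell markers (Des, Lrat and Reln) was 39.7 and 46.0 rpbp at ZT14 and between 20.7 and 38.6 rpbp in the other samples, and thus moved with the ZT14 rise of the chaperones. Of the 2 of them that were expressed, Lrat had both ZT14 values above the others, and neither was rhythmic. None was at 0, with Des at 2.64 rpbp or more, and their part in the result was not tested. The summed level of 5 Kupffer cell markers was 386 and 258 rpbp at ZT14 and 285 to 540.1 rpbp elsewhere. Each of the 5 had its highest mean at ZT2, where Hspa8, Hspa1b and Dnajb1 had their lowest, and their part in the results was not tested. Hbb-b1 of red cells varied between 63.3 and 598 rpbp. The summed level of 4 endothelial markers was 186 and 177 rpbp at ZT14 and 156 to 196 rpbp elsewhere, and 1 of the 4 had a time effect. The pancreas marker Cela1 had its highest time-point mean at ZT14 (87.2 and 80.7 rpbp, against 22.3 to 89.2 rpbp elsewhere) and its lowest at ZT6, was not called rhythmic and missed the threshold for a time effect (adjusted p 0.084, limma), and its part in the results was not tested. Scaling factors from the median of ratios, which would be 1 for equal libraries, lay between 0.976 and 1.05, and the correlation of the 2 samples of a time over expressed genes was 0.975 to 0.987 (log2 scale).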

How the data were processed

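Poly(A) RNA of 12 liver samples was sequenced on an Illumina instrument. The authors called bases with CASAVA 1.8, mapped sequences with TopHat (genome mm9), keeping only unique matches. The deposited signal is the coverage over the flattened exons of a gene divided by their length, without regard to strand, scaled by the authors to 10000000 mapped sequences. The last time point, named ZT20 in the deposited columns, is ZT22 in the labels. The file also holds the authors' F24 scores, phases and p-values, none of which entered the work. The Nascent-Seq libraries of the study are not analysed here. Since mean coverage holds no read counts, values are given without counting intervals.

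Signal was multiplied by 4. F24 is the variance share of a 24 hr cosine, with 10000 permutations of the 12 values (seed 1). limma 3.58.1 (R 4.3.3) was fitted to log2(rpbp + 1) of all 10198 expressed genes with 1 mean per time point and trended variance. p-values were adjusted by Benjamini-Hochberg over these genes. Scripts were tested on simulated data. Named genes were all 10 genes of the set, the rhythmic genes of each list (at most 6, otherwise the 2 highest by mean, with Stip1 added after its values were seen), and the 5 genes most like the chaperones and the 5 most like Hsf1. The genes and lists were chosen with earlier results of these data known. Each sample came from different mice, as far as the methods state. Alternatives were other minimums (16 or none), scaling, pseudocounts, log scale, a replicate block, a 2-group model and samples left out.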

Additional observations from a re-analysis of the deposited data

Results flagged for a closer look

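The 6 light and the 6 dark samples of each of the 10 genes were searched for a sample far from the others, by the gap to its nearest neighbour over the range of the group. None of the 20 groups had a gap above Dixon's 95% critical value. For samples of a single distribution, chance alone passes it in about 1 group in 20. Each group joins several times of day with 2 samples each, so 2 high samples of a time mask each other. The search therefore cannot exclude an outlying sample.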

How the results depend on the processing

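The count of 7 rhythmic genes in the set (1960 among all expressed genes) moved to 2 (505) with the adjusted permutation p and 3 (875) with a limma cosine fit. Samples or series left out gave 1 to 8 (284 to 1988), and each series alone called 1 in the set (284 in all for series 1 and 360 for series 2). With 6 values the permutation p has few steps (720 orders). A call can thus be lost at a similar F24, as for Hspa8 with 0.74 in series 1 and 0.69 in series 2. Without ZT14, chosen after seeing the data, the set had 3 (1723 in all). The time effect, 5 genes of the set and 2076 in all, ranged over 3 to 6 and 921 to 2017 when 1 sample was left out, was 4 in the set with no minimum (Dnajb1 lost it, adjusted p 0.083), and was 2 without ZT14 (1748 in all). The dark to light difference, 3 and 540 genes, was 2 to 3 and 217 to 543 when 1 sample was left out, 0 and 34 in the 2-group model, 2 and 312 with no minimum (Hsp90ab1 lost it, adjusted p 0.065), and 1 without ZT14 (393 in all). Taking the amplitude from time-point means, Hsp90ab1 (1.38) and Hspd1 (1.32) lost the call. The dark minus light value of Hspa8, not called, was -0.040 without ZT14. That of Hspd1 was 0.021 with the median of ratios, and -0.042 to 0.040 when 1 sample or 1 series was left out, and that of Hspe1 was -0.078 to 0.032. Without ZT14 these were -0.092 and -0.14. With 1 series alone the fit with 1 mean per time point has no residual spread, so it gave no test, and other limma models were not run on 1 series. The causes were not tested.

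With the replicate number as a block, 7 genes of the set (1790 in all) were rhythmic (Hspa8 with an adjusted permutation p of 0.055), 4 (1706) had a time effect (Dnajb1 lost it, adjusted p 0.058) and 2 (459) differed between dark and light (Hsp90ab1 lost it, adjusted p 0.051). Deviations of same-numbered samples had correlations of -0.15 to 0.21 over 15 pairs of times, above 0.1 in 2. A shared origin of same-numbered samples was thus not evident, but such correlations cannot exclude it. The signal is not a count, so low values such as those of Hspa1a carry no counting interval.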
